A study of Bos taurus with 4 samples.

Results

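The 5 microRNAs described here, all known from the cells of the ovarian follicle, were miR-21, miR-202, miR-424, miR-503 and miR-132, and they were followed in small RNA libraries of bovine oocytes. They were chosen by name: every sequence that the deposited annotation gave one of these names was taken, with the arm, the copy number and any note of a mismatch removed from the name. These 5 microRNAs were among 502 bovine microRNAs and 38420 names of all kinds in the libraries, and they took 332 distinct sequences and 1380 reads. No sequence of theirs carried another name as well. The oocytes were of the germinal vesicle stage, in which the egg cell rests in meiotic prophase within its follicle. The 2 input libraries were made from oocyte RNA without an antibody, and the 2 TDRKH IP libraries from RNA recovered with an antibody against Tdrkh (Proteintech). TDRKH belongs to the tudor domain proteins and partners PIWI proteins on mitochondria, and the question of the design is which small RNAs are recovered with it. No IP with a control antibody was analysed here, so RNA bound to TDRKH cannot be told apart from RNA carried along in the IP.

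A microRNA is cut from a hairpin transcript, in animals by Drosha and then Dicer, and 1 strand of the duplex is held by an Argonaute protein. The strand nearer the 5′ end of the hairpin is the 5p arm and the other is the 3p arm. Bases 2 to 8, the seed, pair with target mRNAs, so a read that starts 1 base earlier carries another seed. PIWI proteins hold a different class, the piRNAs, which are made without Dicer. In the follicle, miR-21 is known from granulosa and cumulus cells, where it supports cell survival, and miR-202 from the gonads of many vertebrates. The genes of miR-424 and miR-503 lie side by side and belong to the extended miR-15 and miR-16 family, and miR-132 is induced in granulosa cells by gonadotropins. In whole-oocyte RNA, fewer follicle cells and less of a microRNA per cell cannot be told apart.

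The sequences below are the most abundant form of each arm in the 4 libraries, printed as DNA letters as in the deposited lists, with the seed in capitals. They are shown because the arms, the seeds and the ends of these forms are what the values further on count.
miR-21 5p: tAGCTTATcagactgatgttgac
miR-202 5p: tTCCTATGcatatacttcttt
miR-202 3p: aGAGGTGTagggcatgggaaa
miR-424 5p: cAGCAGCAattcatgttttgaa
miR-424 3p: cAAAACGTgaggcgctgctat
miR-503 5p: tAGCAGCGggaacagtactgcag
miR-132 5p: aACCGTGGctttcgattgttact
The seed of miR-424 5p, AGCAGCA, is also the seed of the listed forms of miR-15a, miR-15b, miR-16a, miR-16b, miR-195 and miR-497. The seed of miR-503 5p, AGCAGCG, differs from it at 1 base. The seed of miR-202 3p, GAGGTGT, differs at 2 bases from GAGGTAG, the seed of let-7a-5p. No seed printed above occurs in more than 1 of these 7 arms. The printed form of miR-132 5p rests on 2 reads, both in the second input. It is tied with a 20-nt form, also of 2 reads, that starts 1 base later and has the seed CCGTGGC. Of the miR-132 5p reads, 4 of 4 in the first input and 5 of 10 in the second started after the printed form. The RefSeq gene table of assembly ARS-UCD2.0 holds all 5 hairpin genes and places MIR424 beside MIR503, MIR132 beside MIR212 and MIR21 beside VMP1. Coordinates are not printed, since the sources used here do not give the build behind the annotation.

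The arm names of the annotation did not follow the arms. Of 328 sequences named with -3p, 213 belonged by their bases to the 5p arm, and these held 781 of the 1113 reads so named. Only the exact reference form of a 5p arm, such as the 21-nt miR-202 above, had a name of its own, and every other read of either arm was named -3p. For miR-21 this left 8 of the 522 input reads under the name miR-21-5p, although all 522 were of the 5p arm. Arms were therefore assigned from the sequence, a step chosen after the data were seen.

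The inputs held 1079364 and 1354003 listed reads and the IPs 11138905 and 11060320. Reads named from piRNA clusters made up 87.8% to 88.8% of the inputs and 96.8% to 96.9% of the IPs. Bovine microRNA reads made up 1.77% and 1.82% of the inputs but 0.0603% and 0.0735% of the IPs. Levels are given as RPM, reads per 1000000 listed reads, and 3 reads, the smallest level treated as measurable, equal 1.23 RPM over both inputs and 0.135 RPM over both IPs. Nothing in the labels says that libraries of a group came from separate pools of oocytes, so the p-values measure only the spread between these libraries, which may be technical.

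All 5 follicle microRNAs were lower in the IPs than in the inputs at an adjusted p under 0.05, by edgeR's quasi-likelihood test with Benjamini-Hochberg adjustment over 5392 names. Among all names tested 58.1% were lower and 16.5% higher, and among the 160 bovine microRNAs tested 85.6% were lower and 1.88% higher. The count of 5 of 5 is therefore close to that of bovine microRNAs in general. The median log2 change was -7.02 for these 5 microRNAs, -5.67 for bovine microRNAs and -2.40 for all names. Only miR-202 reached the level that the filter on low counts asked for, 1.61 RPM, in both inputs and both IPs. miR-21 reached it in both inputs and 1 IP, and the other three reached it in the inputs alone, so a fall was the only change they could show.

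miR-21 and miR-202 stood at similar levels in the inputs and apart in the IPs. miR-21 measured 199 and 227 RPM in the inputs and 0.988 and 2.26 RPM in the IPs. miR-202 measured 213 and 222 RPM in the inputs and 5.03 and 10.04 RPM in the IPs. Every IP lay below every input for both, in a class of which 85.6% were called lower. How many of the class had no overlap between the groups was not counted. Both IPs held more miR-202 than miR-21. There were 1.07 and 0.980 reads of miR-202 per read of miR-21 in the inputs, against 5.09 and 4.44 in the IPs. The groups did not overlap in this ratio, for which the exact permutation test gave p = 0.333, the smallest value that 2 libraries against 2 allow.

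**Figure D1:**
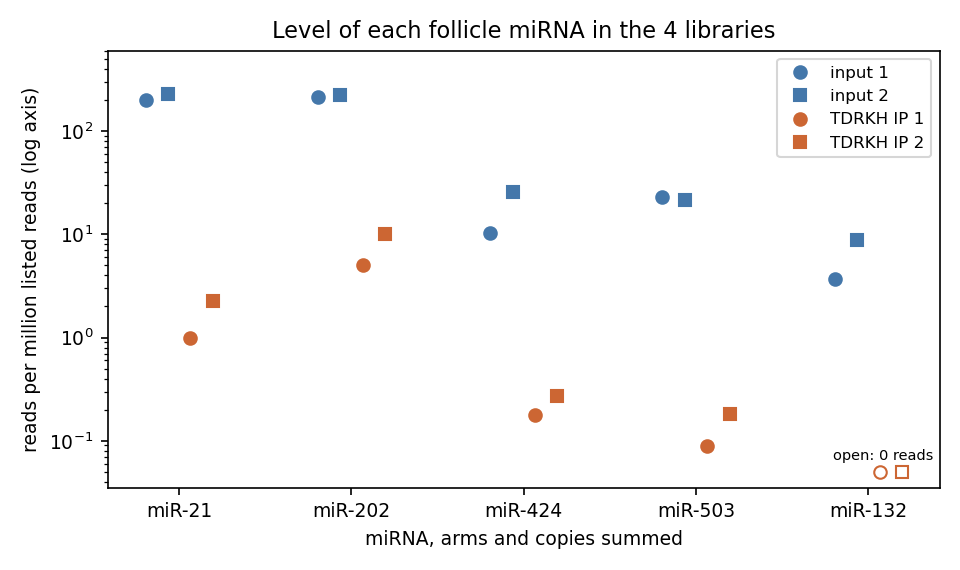
Level of the 5 follicle microRNAs in each library, in RPM on a log axis; blue points are inputs, orange points TDRKH IPs, and open points stand for 0 reads. For each microRNA both inputs lie above both IPs, beside 85.6% of the 160 tested bovine microRNAs called lower in the IPs. The share of all microRNAs without overlap was not counted. miR-202, at 5.03 and 10.04 RPM, is the highest of the 5 in each IP.

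The log2 change of miR-21 was -7.02 ± 0.22 (SE; adjusted p = 9.96e-08 by edgeR's quasi-likelihood test), and that of miR-202 was -4.85 ± 0.23 (adjusted p = 1.13e-06 by the same test). In pooled reads miR-21 was 132.3-fold lower in the IPs (exact 95% interval 94.3 to 191) and miR-202 29.0-fold lower (24.3 to 34.7). These intervals, like all intervals here, cover counting error only, since reads can be PCR copies. Of the 160 bovine microRNAs tested, 25 had a lower log2 change than miR-21 and 113 a lower one than miR-202. By mean level miR-202 ranked 19 of 160 in the inputs and 24 in the IPs, whereas miR-21 ranked 21 and then 51. The second IP held 2.29 times the miR-21 level of the first and 1.996 times its miR-202 level, against 1.22 times for all bovine microRNA reads. Without the second IP the log2 changes were -7.72 for miR-21 and -5.43 for miR-202, and without the first they were -6.54 and -4.44.

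miR-424 and miR-503, neighbours on the chromosome with seeds 1 base apart, had similar low levels in the inputs. miR-424 had 11 and 35 reads in the inputs, or 10.2 and 25.8 RPM, and 2 and 3 reads in the IPs, or 0.180 and 0.271 RPM. miR-503 had 25 and 29 reads in the inputs, or 23.2 and 21.4 RPM, and 1 and 2 reads in the IPs, or 0.0898 and 0.181 RPM. The ranges of their input levels overlapped. For either, both inputs lay above both IPs. Of tested bovine microRNAs 85.6% were called lower, but the share without overlap was not counted. The log2 change was -6.24 ± 0.61 for miR-424 and -7.16 ± 0.44 for miR-503, with adjusted p of 5.68e-05 and 5.29e-06 by edgeR's quasi-likelihood test. The pooled ratios were 83.9-fold for miR-424 (exact 95% interval 33.5 to 271) and 164-fold for miR-503 (53.3 to 821). Their intervals overlap, so a difference between these neighbours was not detectable at this depth. For miR-424 the inputs themselves differed, and its log2 change was -6.74 without the first input and -5.40 without the second.

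miR-132, the least abundant, had 4 and 12 input reads, or 3.71 and 8.86 RPM, and no read in either IP. Its mean input level was 46.5 times the level of 3 reads over both IPs. In pooled reads the exact interval for its fall began lower, at 35.2-fold. The adjusted p was 0.000333 by edgeR's quasi-likelihood test. Its call rested on few reads, and without either input it no longer passed the filter. With no filter on low counts its adjusted p was 0.100 by the same test.

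**Figure D2:**
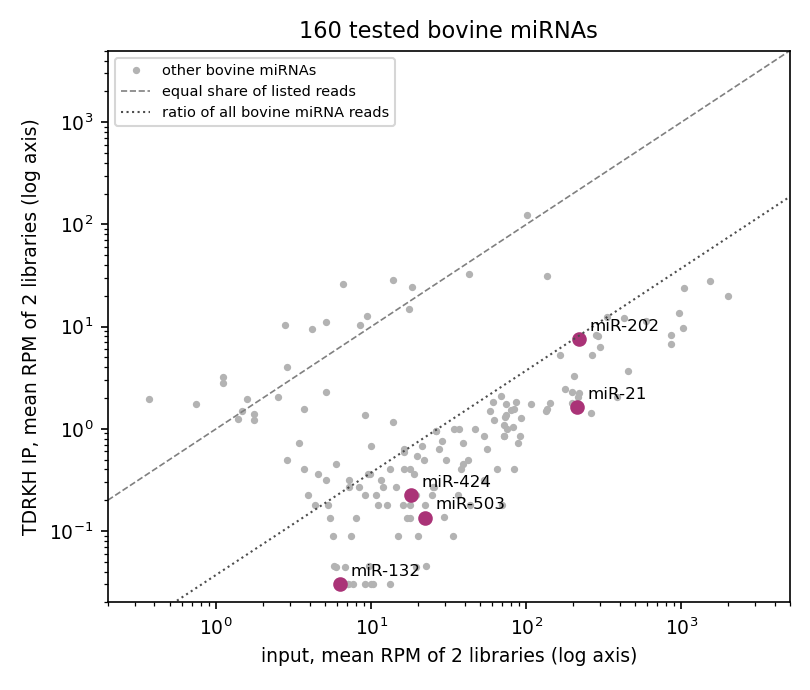
Mean level of each of the 160 tested bovine microRNAs in the 2 inputs (x) and the 2 TDRKH IPs (y), in RPM on log axes, with the follicle microRNAs in purple and microRNAs at 0 in both IPs drawn at 0.03. The dashed line marks equal levels and the dotted line the ratio of all bovine microRNA reads, near which miR-202 lies while the other four lie below it.

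Since bovine microRNAs as a class made up a smaller share of the IPs, each member was also measured against the total of bovine microRNA reads. On that scale the median bovine microRNA had a log2 change of -0.96, with 48.8% of the 160 lower and 18.1% higher, and the median of all names was 4.68 higher than with listed reads. Of all 5392 names 8.79% were lower and 61.3% higher on this scale (61.2% higher where arms were counted apart). miR-202 made up 1.20% and 1.22% of bovine microRNA reads in the inputs and 0.834% and 1.37% in the IPs. The IPs lay on both sides of the inputs, and the log2 change was -0.13 ± 0.28 (adjusted p = 0.686 by edgeR's quasi-likelihood test). It turned to 0.17 without the first IP and was -0.54 without the second. miR-21 fell from 1.12% and 1.25% to 0.164% and 0.308%, a log2 change of -2.30 ± 0.35 (adjusted p = 8.12e-11 by the same test).

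The rarer microRNAs were also lower against the class. They had passed the filter, which was set on listed reads, in the inputs alone, so their selection favoured a fall. miR-503 had a log2 change of -2.57 ± 0.72 (adjusted p = 0.000691 by edgeR's quasi-likelihood test). miR-424 had one of -1.58 ± 0.67 (adjusted p = 0.0267 by the same test), and of its arms, given below, only the 5p arm was called. miR-132, with no IP read, had an adjusted p of 0.00675 by that test. The call of miR-424 was lost without the second input, where its log2 change was -0.75, and without either IP, where it was -1.44 and -1.74. That of miR-132 was lost without either IP, with adjusted p of 0.341 and 0.365 by edgeR's quasi-likelihood test.

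The total of bovine microRNA reads itself differed in kind between the groups. Some names carry a note of a base that differs from the reference. Reads with such a mismatch note were 47.3% and 41.2% of bovine microRNA reads in the inputs and 60.0% and 58.9% in the IPs. miR-202 and miR-21 went the other way. For miR-202 the noted share was 27.4% and 17.3% in the inputs and 1.79% and 1.80% in the IPs, and for miR-21 it was 31.6% and 25.7% in the inputs and 0 of 11 and 0 of 25 reads in the IPs. The other 3 had too few IP reads for such a share, at 5, 3 and 0 reads. In the inputs most reads of miR-132 carried a note, 3 of 4 and 8 of 12. For miR-424 it was 2 of 11 and 8 of 35 input reads, and for miR-503 10 of 25 and 3 of 29. Reads named from piRNA clusters also had fewer notes in the IPs, 26.0% and 26.2% against 48.7% and 41.2%. With noted reads left out of both the members and the total, an alternative chosen after the data were seen, miR-202 was higher in the IPs, with a log2 change of 0.66 ± 0.30 (adjusted p = 0.0408 by edgeR's quasi-likelihood test). The median bovine microRNA then had a change of -0.42, with 13 of 111 higher and 32 lower. miR-21 and miR-503 stayed lower at -1.36 and -2.26, and miR-424, at -0.77, had an adjusted p of 0.341 by the same test. The part of inexact matches in the place of miR-202 within the class was otherwise not tested.

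**Figure D3:**
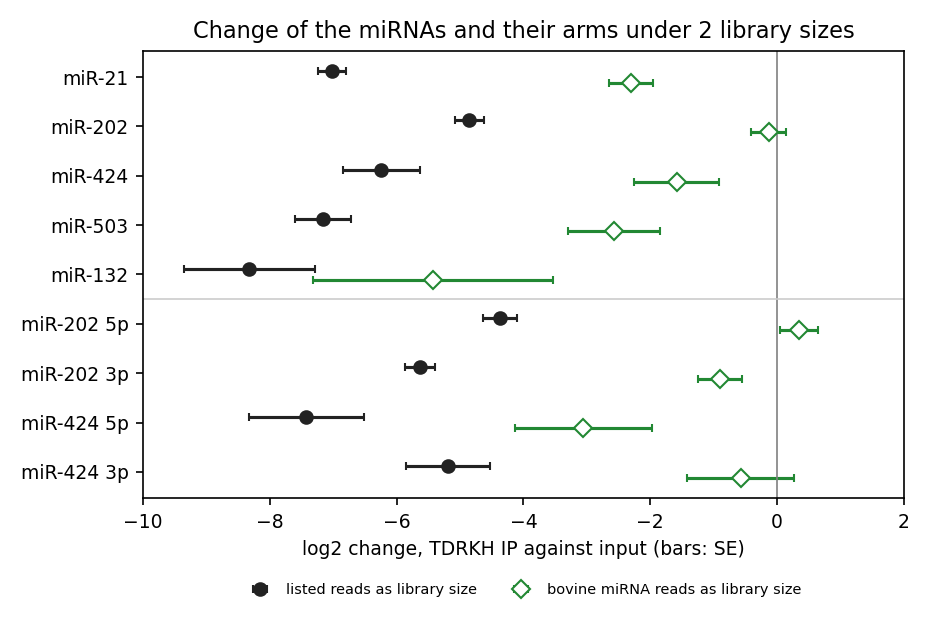
Log2 change from input to TDRKH IP of the 5 microRNAs and of the arms of miR-202 and miR-424, with listed reads (black) or bovine microRNA reads (green, open) as library size; bars are standard errors. With listed reads all values lie between -8.32 and -4.37, and with bovine microRNA reads miR-202 and its 5p arm lie near 0. The 3p arm of miR-424, at -0.57 ± 0.84 with bovine microRNA reads, is not told apart from 0.

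Both arms of miR-202 were abundant, and they did not fall alike. The 5p arm measured 118 and 107 RPM in the inputs and 3.501 and 7.32 RPM in the IPs. The 3p arm measured 95.4 and 115 RPM in the inputs and 1.53 and 2.71 RPM in the IPs. The arms were level in the inputs, and in each IP the 5p arm was the higher. Its share of miR-202 reads was 55.2% (127 of 230 reads, Wilson 95% interval 48.8% to 61.5%) and 48.2% (145 of 301, 42.6% to 53.8%) in the inputs. In the IPs it was 69.6% (39 of 56, 56.7% to 80.1%) and 73.0% (81 of 111, 64.0% to 80.4%). The mean share was 51.7% ± 4.98 (SD, n = 2) in the inputs and 71.3% ± 2.35 (SD, n = 2) in the IPs, and the exact permutation test gave p = 0.333, the smallest possible.

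The log2 change was -4.37 ± 0.27 for the 5p arm and -5.63 ± 0.24 for the 3p arm, with adjusted p of 5.31e-06 and 6.51e-07 by edgeR's quasi-likelihood test. Without the second IP they were -4.99 and -6.09, and without the first -3.93 and -5.27. Pooled reads of the 5p arm were 20.7-fold lower in the IPs (exact 95% interval 16.6 to 25.9) and those of the 3p arm 50.3-fold (36.7 to 70.1), so the intervals of the arms did not overlap. Against bovine microRNA reads the 5p arm had a log2 change of 0.35 ± 0.30 (adjusted p = 0.299) and the 3p arm one of -0.90 ± 0.34 (adjusted p = 0.0134), both by edgeR's quasi-likelihood test. When each distinct sequence was counted once, the 5p share was 34.4% in the inputs and 41.7% in the IPs, since the 3p arm had more forms.

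**Figure D4:**
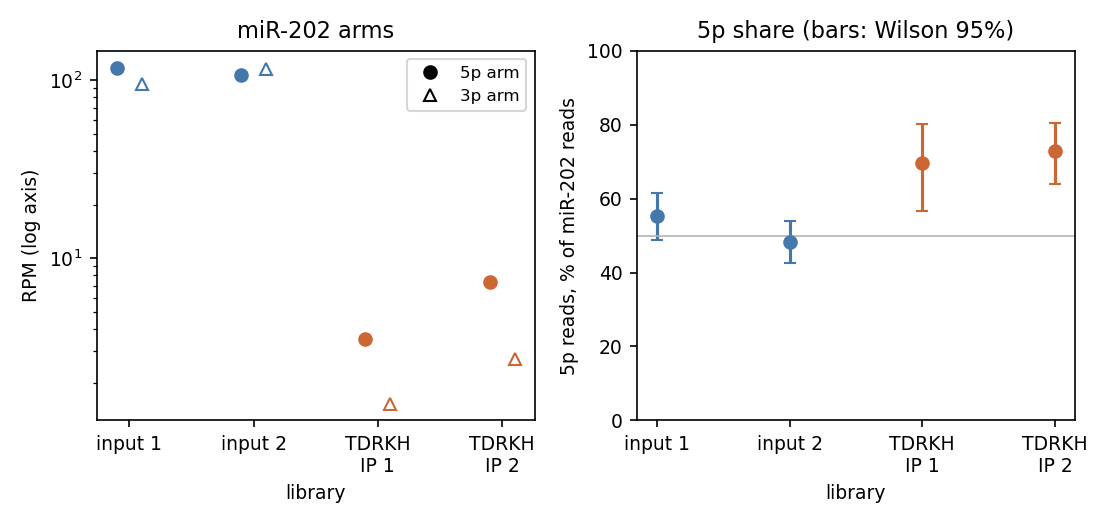
Left, level of the miR-202 arms in each library in RPM on a log axis (filled points 5p, open triangles 3p); right, the 5p arm as a percentage of miR-202 reads with Wilson 95% intervals. The 5p share lies at 55.2% and 48.2% in the inputs and at 69.6% and 73.0% in the IPs.

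The arms of the rarer microRNAs were counted in few reads. miR-424 had 6 and 22 reads of its 5p arm in the inputs and 0 and 1 in the IPs, and 5 and 13 reads of its 3p arm against 2 and 2. Both arms were lower in the IPs, with log2 changes of -7.42 ± 0.91 and -5.19 ± 0.66 and adjusted p of 0.000179 and 0.000224 by edgeR's quasi-likelihood test. Their pooled ratios, 255-fold (exact 95% interval 42.2 to 10445) and 41.1-fold (13.5 to 167), had overlapping intervals. The 5p value was -8.06 without the first input, -6.55 without the first IP and -8.65 without the second, and without the second input neither arm passed the filter. All 54 input reads of miR-503 were of the 5p arm, against 0 and 1 in the IPs, with a log2 change of -8.41 ± 0.56 (adjusted p = 7.09e-06 by the same test). It was -7.56 without the first IP and -9.66 without the second, which held its only IP read. miR-132 had 4 and 10 input reads of the 5p arm and 0 and 2 of the 3p arm. All reads of miR-21 in the 4 libraries were of the 5p arm. Against bovine microRNA reads the 5p arm of miR-424 had a log2 change of -3.06 ± 1.08 (adjusted p = 0.00761 by edgeR's quasi-likelihood test). Its 3p arm had one of -0.57 ± 0.84 (adjusted p = 0.555 by the same test) and was not called.

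The IP reads named miR-503 were mostly of another sequence. Each IP held 1 read of the same 26-nt form, shown here because it aligned with neither the 5p arm of miR-503 nor any input read of that name.
miR-503 as listed, 26 nt: tGGGCAATtggtgatctggagtattg
At the same level the inputs would have held 0.219 reads together, so its lack there was not detectable at this depth. It made up 2 of the 3 IP reads behind the value of miR-503, and with arms assigned by sequence it was left out.

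The forms of miR-21 shared 1 start and differed at the 3′ end. The 23-nt form printed above had 54 and 87 reads in the inputs and 3 and 10 in the IPs, and the 22-nt form, 1 base shorter, had 43 and 84 against 3 and 9. Tested as single sequences, these 2 forms had log2 changes of -6.57 and -6.52, with adjusted p of 1.06e-13 and 2.36e-13 by edgeR's quasi-likelihood test over 11786 sequences, of which 19.9% were lower and 41.9% higher. Single sequences were tested at 10 RPM or more in 2 libraries, which these forms reached in the inputs alone, so a call could only be a fall. Reads of 22 or 23 nt were 80.5% and 80.1% of miR-21 in the inputs, and 54.5% (6 of 11 reads) and 80% (20 of 25) in the IPs. The IPs spread too widely for a difference to be seen, with a Wilson 95% interval of 28.01% to 78.7% in the first. The start was the same in 95.5% ± 1.05 of input reads and in all 36 IP reads (SD, n = 2).

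Reads of miR-21 outside the usual lengths were rare. Reads of 19 nt made up 0.489% of miR-21 in the inputs (0 of 215 and 3 of 307 reads) and 8.55% in the IPs (1 of 11 and 2 of 25). No input read of miR-21 was of 25 nt or more, against 2 of 11 and 1 of 25 IP reads. The longest were 2 forms of 27 nt, shown for their ends, which ran past the 23-nt form by 4 bases. The first had 1 read in the first IP and the other 1 read in the second.
miR-21 5p, 27 nt, first IP: tAGCTTATcagactgatgttgactgtt
miR-21 5p, 27 nt, second IP: tAGCTTATcagactgatgttgactgta
The long reads amounted to 0.135 RPM over both IPs, a level at which the inputs would have held 0.329 reads. Their lack in the inputs was thus not detectable, and as shares both kinds rested on 3 IP reads each. Reads 1 base longer at the 3′ end than a more abundant form made up 12.98% ± 1.91 of miR-21 reads in the inputs. In the IPs they made up 8.55% ± 0.77 (SD, n = 2, exact permutation p = 0.333, the smallest possible). Whether that base came from the hairpin or was added to the cut strand was not tested.

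Most reads of the 5p arm of miR-202 were of 1 length, and those of the 3p arm were spread over several. The 21-nt form of the 5p arm had 63 and 101 reads in the inputs and 26 and 56 in the IPs, with a log2 change of -4.17 (adjusted p = 3.17e-11 by edgeR's quasi-likelihood test). The 21-nt form of the 3p arm had 21 and 19 reads in the inputs and 2 and 7 in the IPs, with a log2 change of -5.28 (adjusted p = 1.30e-11 by the same test). Both forms reached 10 RPM in the inputs alone, so here too a call could only be a fall. No other sequences of the 5 microRNAs reached that level in 2 libraries. Reads of 21 nt made up 77.7% ± 5.21 of the 5p arm in the inputs and 69.1% ± 3.49 in the IPs, and reads of 20 nt 5.81% ± 1.54 and 13.2% ± 0.54 (SD, n = 2). The groups did not overlap in either share, with an exact permutation p of 0.333 for each, the smallest possible. Among reads without a mismatch note the 21-nt share was 74.6% ± 6.79 and 69.4% ± 3.88 (SD, n = 2), where the groups overlapped (exact permutation p = 0.667). The 20-nt share was then 5.90% ± 2.45 and 13.4% ± 0.78 (SD, n = 2), with no overlap.

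In the 3p arm reads of 20 or 21 nt made up 49.1% ± 8.76 in the inputs and 56.1% ± 3.88 in the IPs, and reads of 22 or 23 nt 43.0% ± 4.49 and 40.6% ± 0.83 (SD, n = 2). These lengths did not differ beyond their spread.

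**Figure D5:**
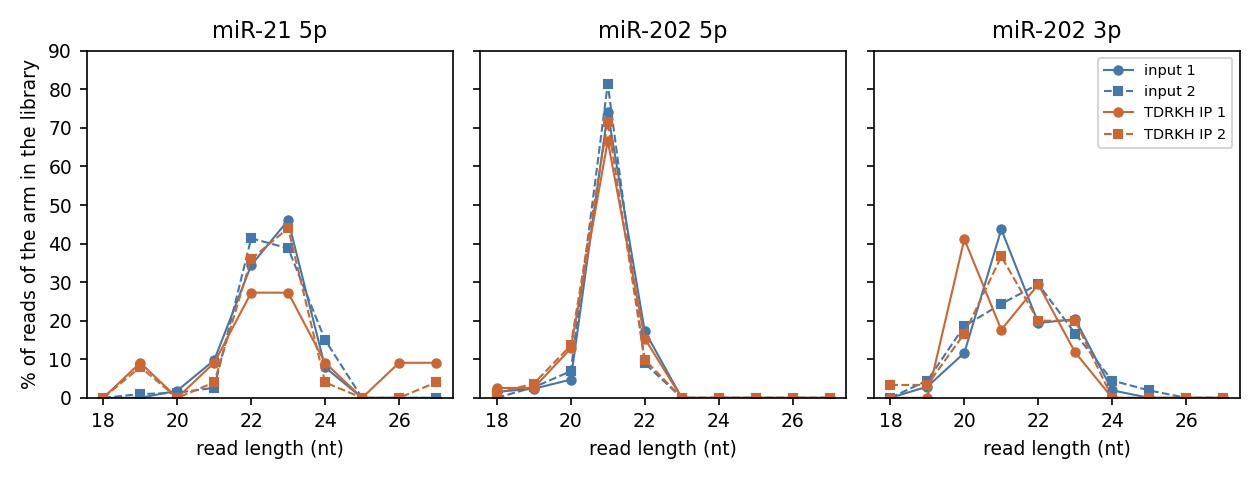
Length of the reads of miR-21 5p, miR-202 5p and miR-202 3p as a percentage of the reads of that arm in each library (blue inputs, orange TDRKH IPs). miR-202 5p peaks at 21 nt in all 4 libraries, while miR-202 3p is spread over 20 to 23 nt and the IP curve of miR-21 rests on 11 and 25 reads.

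Part of miR-202 began 1 base early and so carried another seed. The early form of the 5p arm, printed here for its shifted seed, had 19 and 13 reads in the inputs and 6 and 7 in the IPs.
miR-202 5p, early start: tTTCCTATgcatatacttcttt
Reads starting before the main form were 18.9% and 10.3% of the 5p arm in the inputs and 15.4% and 11.1% in the IPs. The groups overlapped, so the share of the shifted seed TTCCTAT did not differ beyond the spread. In the 3p arm such reads were 24.3% and 14.1% in the inputs and 29.4% and 33.3% in the IPs, means of 19.2% ± 7.19 and 31.4% ± 2.77 (SD, n = 2). The groups did not overlap there, on 47 IP reads in all and with an exact permutation p of 0.333, the smallest possible. Among reads without a mismatch note, the form 1 base early (seed AGAGGTG) had 22 input and 11 IP reads, and forms 3 bases early had 12 and 4.

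Most sequences of each of these microRNAs were in only 1 input. Of 23 input sequences of miR-503 only 3 were in both inputs. Its most abundant form, the 23-nt form above, had 13 reads in the second input and none in the first, and the 24-nt form with 1 more 3′ base had 5 reads in the first and none in the second. None of the 14 sequences of miR-132 was in both inputs. The 2 inputs shared 4 of 21 input sequences of miR-424, 28 of 126 of miR-21 and 28 of those of miR-202. For miR-21 the shared sequences held 167 of 215 reads in the first input and 235 of 307 in the second. For miR-202 they held 173 of 230 and 231 of 301. For miR-424 they held 9 of 11 and 20 of 35, and for miR-503 only 7 of 25 and 5 of 29. Of all sequences, 84 of 129 of miR-21 and 92 of 141 of miR-202 had a single read. The inputs thus held miR-503 at 23.2 and 21.4 RPM on mostly different forms.

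Other microRNAs of the same groups were lower in the IPs too. All 6 tested members of the miR-15 and miR-16 family, which share the seed of miR-424, were lower, with a median log2 change of -5.96, near the 85.6% lower and the median of -5.67 of all tested bovine microRNAs. The most abundant, miR-16a, measured 270 and 171 RPM in the inputs and 2.15 and 2.35 RPM in the IPs, a log2 change of -6.58 ± 0.26 (adjusted p = 4.21e-07 by edgeR's quasi-likelihood test). miR-16b had the lower value of -8.43 ± 0.47 (adjusted p = 2.93e-06 by the same test), and miR-195 one of -5.39 ± 0.33 (adjusted p = 4.90e-06). In both IPs miR-16b, miR-15b and miR-195 lay below the filter level of 1.61 RPM, so a fall was the only change they could show. Against bovine microRNA reads 3 of these 6 were lower and none higher, beside 48.8% lower and 18.1% higher among all tested bovine microRNAs. miR-424 lay among them on both scales.

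All 9 tested members of a list of other cumulus and granulosa cell microRNAs were lower. Their median log2 change was -5.79, and 5 were lower against bovine microRNA reads. These counts, too, lie near the 85.6% and 48.8% of all tested bovine microRNAs. The list had 18 members, of which 16 were in the libraries. miR-320a, the most abundant, measured 249 and 314 RPM in the inputs and 7.18 and 9.22 RPM in the IPs, and had a log2 change of -5.11 ± 0.16 (adjusted p = 9.24e-08 by edgeR's quasi-likelihood test), near that of miR-202. miR-27b, miR-24 and miR-23b come from related hairpin clusters. Their log2 changes were -6.43, -6.69 and -6.28, with adjusted p of 3.69e-07, 3.35e-06 and 2.21e-07 by the same test. In both IPs miR-24 and miR-23b lay below the filter level of 1.61 RPM, so for them too only a fall could show. Of the 6 microRNAs listed as hairpin neighbours of miR-424, miR-503 and miR-132, 3 were in the libraries, at a sum of 8.34 and 3.69 RPM in the inputs, and none passed the filter.

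The nearest other bovine microRNA by Euclidean distance of log2(RPM + 1) over the 4 libraries was miR-9 for miR-21, at a distance of 0.450, followed by let-7e. For miR-202 it was miR-125a, at 0.645, followed by miR-320a, and for miR-424 it was miR-2285bf, at 0.270, followed by miR-100. For miR-503 it was miR-2483, at 0.201, followed by miR-20a, and for miR-132 it was miR-34c, at 0.279, followed by miR-106b. miR-202 had the widest gap to its nearest neighbour of the 5. The added 1 narrows differences between levels below 1 RPM, where miR-424, miR-503 and miR-132 lay in both IPs. The distances of the 5 are therefore not on an equal footing.

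Markers of other cells were also counted in the inputs. The liver microRNA miR-122 measured 435 and 335 RPM in the inputs, above miR-21 and miR-202, and 1.71 and 2.35 RPM in the IPs. The 3 leukocyte markers found of 5 summed to 61.1 and 49.5 RPM in the inputs and 0.628 and 0.362 RPM in the IPs, with miR-223 and miR-155 without reads in the lists used here. All 5 epithelial markers were found, at sums of 62.1 and 74.6 RPM in the inputs and 0.628 and 0.271 RPM in the IPs. The 4 muscle and stroma markers found of 5 summed to 87.1 and 79.8 RPM in the inputs and 2.24 and 3.797 RPM in the IPs. Of the 5, miR-133a had no reads there. Most of the input sum was miR-143, at 84.3 and 63.5 RPM. miR-1 went another way, at 0 and 7.39 RPM in the inputs and 1.26 and 1.90 RPM in the IPs. With listed reads miR-1 was not called (log2 change -1.35), and against bovine microRNA reads it was higher (3.34). The endothelial miR-126 and 1 of 6 embryonic markers had 0 and 0.739 RPM in the inputs, and the 3 erythroid markers had no reads in the lists used here. The 5 microRNAs listed as abundant in oocytes summed to 4182 and 4831 RPM in the inputs and 42.0 and 53.9 RPM in the IPs. The part of other cells in the levels of the follicle microRNAs was not tested.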

How the data were processed

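The authors deposited 1 list of read counts per sequence for each library, carrying the name of the unitas annotation tool. Its settings and the genome build were not found in the sources used here. TRIZOL was used for extraction, per the labels, and the kit was the NEXTflex Small RNA-Seq Kit V3. All listed sequences were of 18 to 36 nt. Reads of a sequence with more than 1 name were split evenly among its names, and sums were rounded. The members and lists were chosen with earlier results of these data known.

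Arms, copies and noted forms of a microRNA were summed. The IPs and inputs were compared with edgeR 4.0.16 in R 4.3.3 (quasi-likelihood test), with listed reads as library size, no further factor and filterByExpr, over 5392 names. P-values were adjusted by the Benjamini-Hochberg method at a threshold of 0.05, and each standard error was taken as the size of the change over the root of F. Arms were assigned by ungapped alignment to the most abundant form, with at least 13 bases of overlap, at most 3 mismatches and an offset of at most 8. Single sequences were tested at 10 RPM or more in 2 libraries. Shares were compared by a two-sided exact permutation test. A simulation covered 5392 names. In it the test found 14 of 81 names with a 2-fold change, 37 of 54 with a 4-fold and 58 of 65 with a 16-fold change. It made 2 false calls. The simulation gave all names a single fixed spread and changed few of them, up and down alike. In the libraries most names were called, so these counts do not measure the error of the comparison here.

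The named forms were, for each microRNA, the 5 sequences with the most input reads and the 3 with the most IP reads, of which those that carry a result are described. Forms of 25 nt or more were singled out after their values were seen. Of each list the 4 tested members with the most input reads were eligible to be named. Alternatives were TMM factors, DESeq2 1.42.0, bovine microRNA or piRNA cluster reads as library size, other filters, single names, un-noted names, a replicate block and leaving out each library. Other steps were run in Python 3.11.15 (pandas 2.3.3, numpy 2.4.6, matplotlib 3.10.9, scipy 1.17.1).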

Additional observations from a re-analysis of the deposited data

How the results depend on the processing

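All 5 microRNAs kept a lower level in the IPs under every alternative with listed or piRNA cluster reads as library size, TMM factors or DESeq2, except where miR-132 did not pass a filter (10 RPM in 2 libraries, un-noted names, or without either input). TMM factors moved the median change of all names by 1.31, DESeq2's size factors by 2.09, piRNA cluster reads by -0.13 and bovine microRNA reads by 4.68. miR-21 ranged from -7.72 to -6.54 over the fits that left out 1 library, miR-202 from -5.43 to -4.44, miR-424 from -6.74 to -5.40, miR-503 from -7.57 to -6.74 and miR-132 from -7.85 to -7.84. Where 1 library of a group was left, its spread was taken to be that of the other group. With no filter miR-132 was at -8.31 and no longer called.

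With bovine microRNA reads as library size miR-202 was at -0.13 and not called, its 5p arm turned to 0.35 and the form named miR-202 to 0.55. On that scale, leaving out 1 library gave -0.54 to 0.17 for miR-202, -2.05 to -0.75 for miR-424 and -5.64 to -5.60 for miR-132, and un-noted reads alone gave 0.66 for miR-202 and -0.77 for miR-424. The cause of these shifts was not tested. The 5p share of miR-202 was 34.4% and 41.7% when each distinct sequence counted once, which by construction weighs rare forms more. Over the combinations of the other share and arm results with an alternative, a call was lost in 3, a share moved by more than the spread between replicates in 6, and 74 did neither and did not reverse.

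With the replicate number as a block, the log2 changes were -7.02 for miR-21, -4.85 for miR-202, -6.17 for miR-424, -7.16 for miR-503 and -8.28 for miR-132, and 5 remained called. Over 5392 names the deviations of same-numbered libraries had a correlation of 0.0227, so the numbers were not taken to pair the libraries. Depth limits the arms and lengths most: the IPs held 36 reads of miR-21, 5 of miR-424, 3 of miR-503 and none of miR-132.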

Other observations

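Most IP reads of miR-21, miR-202 and miR-424 fell on forms also seen in the inputs. For miR-202, 20 of its 29 IP sequences were also in an input, and these held 157 of 167 IP reads. For miR-21 it was 7 of 10 sequences with 33 of 36 reads, and for miR-424 it was 2 of 4 sequences with 3 of 5 reads. Neither of the 2 IP sequences of miR-503 was in an input. Together the 5 microRNAs made up 2.54% and 2.78% of bovine microRNA reads in the inputs and 1.04% and 1.74% in the IPs.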
